A study of Mus musculus with 6 samples.

Results

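The first day of a 2-day neural conversion was compared with the midpoint of its start and its end, to find the genes for which the cells on day 1 were not halfway between both. The cells were mouse epiblast stem cells (EpiSCs) of the strain 129/Sv, pluripotent cells taken from the epiblast after implantation. They were kept in their epiblastic maintenance condition (group EpiSC, 2 cultures), or placed for 1 day (NPC1, 2 cultures) or for 2 days (NPC2, 2 cultures) in a condition that the labels name after neural plate development. All 6 samples of the series entered the comparison. The contrast was NPC1 minus the average of EpiSC and NPC2 on the log2 scale, and its value is called the departure of a gene: 0 if day 1 lies at the midpoint of the ends, above 0 if it lies higher, below 0 if it lies lower. Letters A and B mark the duplicate cultures of a group, grown from 1 common seed culture. The p-values therefore cover only how far these samples spread, and that spread may be technical. The medium additives of the neural plate condition are not given in the sources used here.

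EpiSCs are known to be held in their state by Activin/Nodal and FGF signals, and they express genes of the primitive streak at a low rate while remaining pluripotent. On the way to the neural plate the epiblast gives up Oct4 (Pou5f1) and its partners, gains Sox1 and other neural plate factors, and later gains the factors that divide the plate into forebrain, midbrain and hindbrain. Genes can pass between such states at an even pace, move mostly on the first or mostly on the second day, or leave the range of both states for a time.

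Each culture's total RNA was hybridised to an Agilent 1-colour array of its own, on a common slide. Levels are given as scaled intensities: the processed intensity of a gene's brightest probe, multiplied by 1 factor per array so that the 75th percentiles of all arrays are equal. Values given in pairs are culture A and then culture B. Of 20274 genes named on the array, 14773 were tested, because in at least 1 group both arrays measured them well above background. Between 58.2% and 61.1% of an array's spots were well above background and 0 were saturated. Duplicates correlated across genes, which are not independent replicates, with r between 0.9971 and 0.9976, and their median absolute log2 difference was 0.0633 in EpiSC, 0.0909 in NPC1 and 0.0712 in NPC2. Precision is limited by having 2 arrays per group, and a departure had a standard error (SE) of 0.0587 in the median. Markers of the labelled states were present: Pou5f1 stood at 29041 and 32410.2 in EpiSC, 17143 and 18394 on day 1 and 4899 and 4809.6 in NPC2, and Sox1 at 48.2 and 44.3 in EpiSC, 315 and 308 on day 1 and 2469.5 and 2407 in NPC2.

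Day 1 departed from the midpoint in 4355 genes, 29.5% of those tested, at an adjusted p under 0.05 (limma, Benjamini-Hochberg over all genes). It lay above the midpoint in 2289 genes (15.5%) and below it in 2066 genes (14%). All 4355 had the same sign in cultures A and B. The calls were made from these same arrays, so the shared sign is no separate support. The departure reached at least 2-fold in 265 genes above (1.79%) and 297 genes below (2.01%), and the median over all tested genes was −0.0066. The split between above and below depended on the scaling: 52.6% of calls lay above with the 75th percentile, 38.5% with each array's median, 46.9% with the spike-in controls and 55.5% in the authors' value table.

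A departure can arise in several ways, and the calls were sorted by the shape of the course. A gene was called higher (or lower) on day 1 than at both ends where both differences had that sign and the larger of their 2 p-values passed after adjustment; both differences share the NPC1 arrays. By that rule 218 genes (1.48%) were higher than at both ends and 127 genes (0.86%) were lower, of which 49 (0.332%) and 39 (0.264%) differed from the nearer end by at least 2-fold. Among the other genes with a departure, 713 rose early (4.83%), 755 rose late (5.11%), 867 fell early (5.87%) and 1087 fell late (7.36%). Courses of at least 2-fold departure numbered 50 early rises (0.338%), 137 late rises (0.927%), 84 early falls (0.569%) and 101 late falls (0.684%). For the remaining 588 genes (3.98%) the ends were not called different from each other. Taken singly, the first day raised 3142 genes (21.3%) and lowered 4291 (29%), and the second raised 3079 (20.8%) and lowered 3936 (26.6%).

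**Figure D1:**
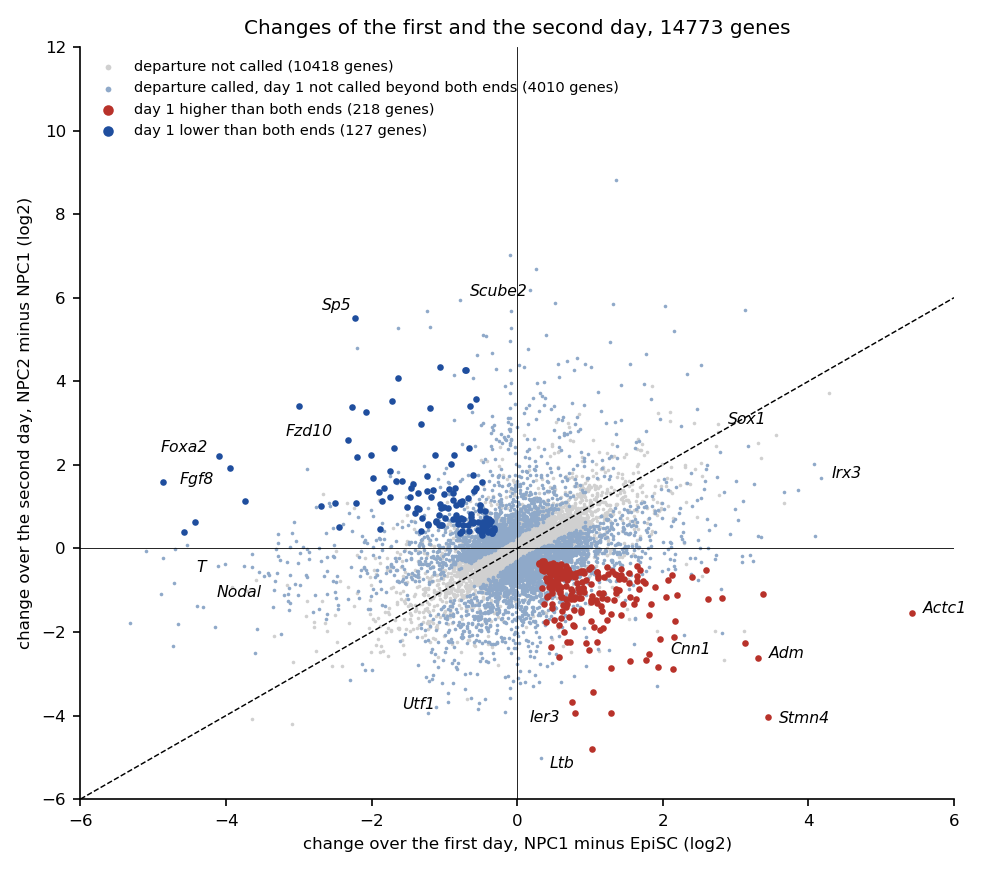
Change over the first day (NPC1 minus EpiSC, log2, x axis) against change over the second day (NPC2 minus NPC1, log2, y axis) for the 14773 tested genes; each point is 1 gene. The dashed line marks equal changes on both days, where the departure is 0. The 218 genes higher on day 1 than at both ends lie in the lower right quadrant with Stmn4 and Actc1 at its edge, and the 127 genes lower than at both ends lie in the upper left with Sp5, Foxa2 and Fgf8.

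The calls of departure were steadier than the calls beyond both ends. Of the 164 departures called among the genes chosen for naming, 138 kept the call without each of the 6 arrays in turn. Of the 58 calls beyond both ends among them, 10 were kept without each array and 26 were lost whichever array was left out. Over all genes, 172 of the 218 higher and 92 of the 127 lower calls were lost whichever array was left out, and 6 and 8 were kept each time. The fewest genes were called higher without NPC1 A (11) and the fewest lower without EpiSC A (12), and the most were 34 without NPC2 B and 33 without NPC1 B. Among the 10 that kept the call were Stmn4, Npas4, Cnn1, Rapgef5 and Cxcl1 on the higher side, and Wnt5b, Id2, Nrp2 and Samd5 on the lower side. Where a call is described for another gene, the highest adjusted p with 1 array left out stands beside it. Spike-in scaling did not make 17 of the 58 calls, among them those of Acta1, Bbc3, Cxcl10, Ddit3, Ddit4, Dhrs3, Fbxo15, Gadd45a, Hmgcs1, Ier3, Jag1, Lefty1, Myc, Spry1, Thy1 and Tubb3, and 28 of the 58 were not made where dim probes were kept in. The spike-in scaling rests on 7 probes. Their mean log2 levels were 2.41 and 2.68 in EpiSC, 2.70 and 2.63 on day 1 and 2.55 and 2.67 in NPC2. The EpiSC duplicates thus lay further apart in the spike-ins than in the median gene (0.0633). Whether calls were lost through this spread was not tested.

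Stmn4, which encodes a neuronal protein of the stathmin family of microtubule regulators, had the largest departure above the midpoint. Its scaled intensity was 467 and 536 in EpiSC, 5639 and 5266 on day 1 and 339 and 326 in NPC2. Both day 1 values lay about an order above those of the ends, without overlap. The log2 departure was 3.74 ± 0.073 (SE; adjusted p = 0.000221), 10.9-fold above EpiSC and 16.4-fold above NPC2, and it was called higher than both ends (adjusted p = 0.00148).

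Contractile genes lay mostly above the midpoint on day 1, though their median log2 change over the first day was only 0.13. Serum response factor (SRF) is a transcription factor that binds the CArG box, a short AT-rich element, and drives immediate early genes and the actin and myosin genes of muscle. Of 21 tested members of a list of SRF targets and contractile genes, 16 lay above the midpoint and 3 below, against 15.5% and 14% of all tested genes; the median departure was 0.57. Acta1, Actc1, Cnn1, Myl9 (adjusted p up to 0.0738 without 1 array) and Tagln were called higher than both ends, 8 members fell late, and Fhl1, Fhl2 and Mylk lay below. With the spike-in scaling 10 members were called above. The lists were chosen with earlier results of these data known, so a list's direction is not independent evidence.

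Actc1, the cardiac alpha-actin gene, stood at 86.7 and 105 in EpiSC, 3999 and 4224 on day 1 and 1397 and 1414 in NPC2. It was low in EpiSC only, highest on day 1 and intermediate in NPC2, without overlap. Its log2 departure was 3.49 ± 0.087 (adjusted p = 0.000252), and it lay 43.1-fold above EpiSC and 2.92-fold above NPC2 (adjusted p = 0.00898 for both; up to 0.064 with 1 array left out). Cnn1, which encodes the smooth muscle protein calponin 1, stood at 4115 and 4406 in EpiSC, 16510.2 and 16606 on day 1 and 3719.7 and 3645 in NPC2. Its ends lay close together and day 1 stood clear of both, 3.89-fold above EpiSC and 4.50-fold above NPC2 (adjusted p = 0.00148). Tagln (transgelin, an actin-binding protein of smooth muscle) had the same course at 19083 and 20538 in EpiSC, 42083 and 41513 on day 1 and 17761 and 17654 in NPC2, with a log2 departure of 1.16 ± 0.046 (adjusted p for both ends 0.00543, up to 0.0522 without 1 array). Acta1, the skeletal alpha-actin gene, reached 655 and 633 on day 1 from 100.1 and 115 in EpiSC and kept 453 and 442 in NPC2. Its departure of 1.56 ± 0.067 held without each array (adjusted p up to 0.00671), while its difference from NPC2 was near the threshold (adjusted p = 0.0493, up to 0.236 with 1 array left out). Acta2, the smooth muscle alpha-actin gene, did not turn back on day 2: it went from 329.7 and 383 over 1213 and 1132 to 2254 and 2029. Its log2 departure of 0.43 ± 0.086 (adjusted p = 0.0228) was lost without NPC1 A, NPC1 B or NPC2 B (adjusted p up to 0.114). Myl3, a cardiac and slow muscle myosin light chain gene outside the list, stood at 96.6 and 106 in EpiSC, 999 and 1094 on day 1 and 507 and 479.7 in NPC2 and departed by 2.23 ± 0.066 (adjusted p = 0.000262; 0.00999 for both ends, up to 0.0671 without 1 array).

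Fibroblasts and smooth muscle cells also carry contractile genes, so the fibroblast and feeder markers were read beside them. Of 13 tested markers 4 lay above the midpoint (2 to 4 with 1 array left out) and 6 below, and their summed scaled intensity was 4834 to 5120 in EpiSC, 5385 to 5575 on day 1 and 7164 to 7420 in NPC2. The sum on day 1 lay between those of the ends, with no marker at 0. Col1a1 and Col1a2, fibrillar collagen genes of the list, lay below the midpoint, at −0.41 and −1.05, while 4 other markers lay above it. Thy1, a surface protein of fibroblasts and neurons, was the marker called higher than both ends, at 1145 and 1213 in EpiSC, 2472 and 2553 on day 1 and 1679 and 1724 in NPC2 (adjusted p = 0.0165, up to 0.0997 without 1 array). Their part in the contractile peaks was not tested. In bulk samples such as these, fewer cells of a type and less RNA per cell cannot be told apart.

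The promoters of 3 of the 5 contractile genes called higher than both ends are shown because they hold the CArG box. The sequences are 5′ to 3′ on the gene's strand, from RefSeq promoter windows (250 bases before to 50 after a gene's start) of build GRCm38.p6, with 25 bases to each side of the match. Capitals mark the CArG box.
Actc1: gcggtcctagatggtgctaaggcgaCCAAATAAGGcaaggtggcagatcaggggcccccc
Acta1: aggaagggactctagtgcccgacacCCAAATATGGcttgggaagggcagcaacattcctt
Myl9: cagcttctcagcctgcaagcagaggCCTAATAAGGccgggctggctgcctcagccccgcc
The Actc1 stretch is chr2:114052888-114052947 (minus strand, match beginning 47 bases before the gene's start), that of Acta1 is chr8:123894814-123894873 (minus strand, 73 bases before) and that of Myl9 is chr2:156775278-156775337 (plus strand, 161 bases before). In these 300-base windows, read on both strands, the CArG box occurred in 9 of 18 list members with a window, and in 1.71% of the 11704 tested genes with one. The list was made of known SRF targets, so its share does not speak to day 1. The box occurred in 8 of 172 genes higher than both ends (4.65%) and in 3 of 96 lower (3.1%). With the 2-fold limit it occurred in 4 of 38 genes higher (10.5%) and in 1 of 29 lower (3.45%). Among the 4 was Filip1, which passed the filter through day 1 alone, so these shares are a description and no support. No match was found in the windows of Cnn1, and Tagln had no entry in the table. A match is a description of the letters, and no binding was measured here.

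Genes known as targets of NF-kB, a dimeric transcription factor that is kept in the cytoplasm by inhibitors such as Nfkbia, lay above the midpoint as a group. Of 17 tested members 16 lay above and 0 below, with a median departure of 0.93; at an unadjusted p under 0.05 the count below was also 0. There were 6 called higher than both ends: the chemokine genes Ccl2, Cxcl1 and Cxcl10, the subunit genes Nfkb2 and Relb, and the inhibitor gene Nfkbia. Another 8 fell late and 2, Tnfaip2 and Nfkbie, rose early. With the spike-in scaling 11 members were called above.

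Ccl2, a chemokine that attracts monocytes, stood at 17.3 and 16.5 in EpiSC, 79.3 and 71.6 on day 1 and 20.5 and 14.7 in NPC2. Day 1 lay above both ends in both cultures, and the ends overlapped each other. Its log2 departure was 2.14 ± 0.14 (adjusted p = 0.00116), 4.45-fold above EpiSC and 4.34-fold above NPC2 (adjusted p = 0.0118, up to 0.0847 without 1 array). Cxcl10, a chemokine gene that also responds to interferon, stood at 1221 and 1399.6 in EpiSC, 2175 and 2230.4 on day 1 and 176 and 167 in NPC2, so that the fall on the second day (12.8-fold) far exceeded the rise on the first (1.68-fold). Its departure was 2.22 ± 0.069 (adjusted p = 0.000304; 0.0225 for both ends, up to 0.13 without 1 array). Cxcl1, a neutrophil chemokine, stood at 27.6 and 27.3 in EpiSC and 67.4 and 66.5 on day 1 and was not well above background in NPC2. Day 1 was at least 2.44-fold higher than both ends. Such a bound sets the dim group at the lowest signal that counted as above background on its array, or at its own signal where that is higher. The call held without each array (adjusted p = 0.00289, up to 0.0402).

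The NF-kB subunits moved less than the chemokines. Relb, the partner of the Nfkb2 product in the alternative pathway, stood at 615 and 743 in EpiSC, 1371 and 1366 on day 1 and 590.3 and 579 in NPC2, with a log2 departure of 1.12 ± 0.084 (adjusted p for both ends = 0.0172, up to 0.113 without 1 array). Nfkb2 stood at 1068 and 1135 in EpiSC, 1909.7 and 1779.7 on day 1 and 848 and 859 in NPC2 (departure 0.93 ± 0.052; up to 0.0801), and Nfkbia at 2487 and 2665 in EpiSC, 3920.1 and 3875 on day 1 and 1224 and 1214 in NPC2 (departure 1.14 ± 0.045; up to 0.0908). In all 3, day 1 was the highest group with no overlap, and NPC2 lay below EpiSC. Spike-in scaling did not make the calls of Nfkb2 and Nfkbia. Nfkb1, which encodes the p50 precursor, departed by 0.30 as a late fall. Bcl3, a nuclear cofactor of NF-kB dimers, held its level for a day, at 339 and 360.4 and then 348 and 306, and fell to 29.1 and 25.8 in NPC2, a departure of 1.74 ± 0.082 (adjusted p = 0.000571). Ltb, a member of the tumour necrosis factor family and outside the list, stood at 2768 and 3135 in EpiSC, 6514 and 5480.1 on day 1 and 228 and 200.1 in NPC2 and departed by 2.91 ± 0.11 (adjusted p = 0.000346; 0.0312 for both ends, up to 0.16 without 1 array). Of the interferon and antigen presentation genes 4 of 16 lay above the midpoint and 9 below, 8 of them as early falls such as Isg15 (3811 and 3820.4 in EpiSC, 418 and 407 on day 1 and 189 and 192 in NPC2), a ubiquitin-like protein induced by interferon.

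The NF-kB motif in the promoters of 4 of these genes is shown in capitals, in the same kind of window.
Cxcl1: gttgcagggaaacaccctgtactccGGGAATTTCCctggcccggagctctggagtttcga
Cxcl10: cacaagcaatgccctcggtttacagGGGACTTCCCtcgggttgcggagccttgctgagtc
Nfkb2: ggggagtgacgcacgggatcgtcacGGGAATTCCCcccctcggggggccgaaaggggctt
Nfkbia: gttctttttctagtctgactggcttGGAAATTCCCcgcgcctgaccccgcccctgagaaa
They lie at chr5:90891149-90891208 (plus strand), chr5:92348958-92349017 (minus strand), chr19:46304673-46304732 (plus strand) and chr12:55492642-55492701 (minus strand), with the match beginning 71, 103, 39 and 29 bases before the gene's start. The motif occurred in 9 of 14 list members with a window. It occurred in 12 of the 38 genes with a window that were at least 2-fold higher than both ends (31.6%), among them Cxcl1, Dio3, Ltb, Madcam1 and Tm4sf1, and in 6.46% of all tested genes with a window. Of the genes at least 2-fold lower than both ends it occurred in 1 of 29 (3.45%). Without the 2-fold limit it occurred in 33 of 172 genes higher than both ends (19.2%) and in 5 of 96 genes lower (5.21%). Filip1, which passed the filter through day 1 alone, was also among the 12, so these shares are a description and no support. Ccl2 and Relb had no entry in the table.

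**Figure D2:**
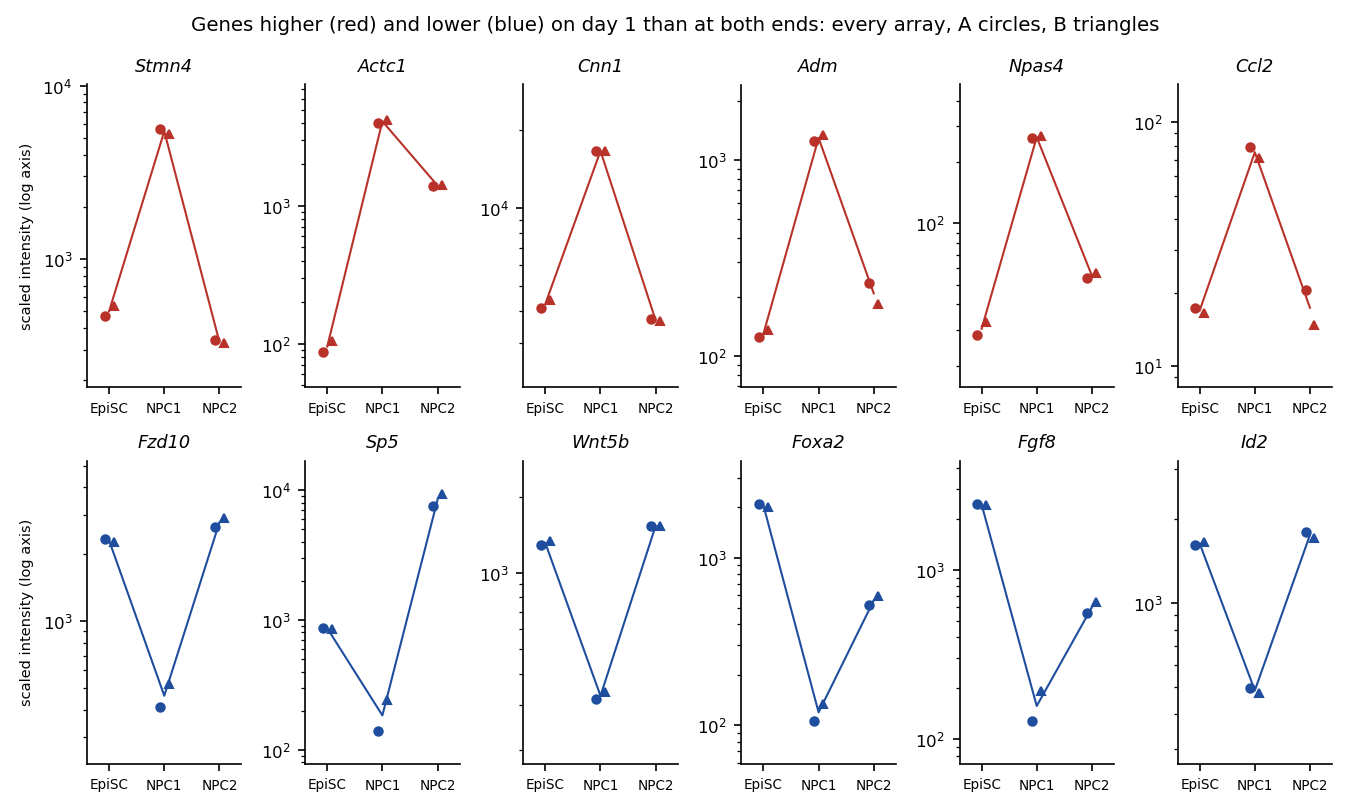
Scaled intensity (log axes, 1 panel per gene) on every array by group: circles are culture A, triangles culture B, and lines join the geometric means of each pair. Stmn4, Actc1, Cnn1, Adm, Npas4 and Ccl2 (red) are highest on both day 1 arrays, and Fzd10, Sp5, Wnt5b, Foxa2, Fgf8 and Id2 (blue) are lowest on both.

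Other genes among the largest peaks were of mixed kinds. Adm, the vasodilator peptide adrenomedullin, stood at 125 and 136 in EpiSC, 1246 and 1346 on day 1 and 236 and 185 in NPC2 (log2 departure 2.97 ± 0.11; 9.94-fold above EpiSC, 6.20-fold above NPC2; adjusted p for both = 0.00543, up to 0.0522 without 1 array). Npas4, a transcription factor gene switched on by neuronal activity, stood at 28.1 and 32.7 in EpiSC, 263 and 267 on day 1 and 53.9 and 57.0 in NPC2 (departure 2.69 ± 0.073; adjusted p for both = 0.00331, up to 0.0399). Dio3, the deiodinase that inactivates thyroid hormone, stood at 17.4 and 21.7 in EpiSC, 89.2 and 82.2 on day 1 and 11.5 and 11.7 in NPC2 (departure 2.51 ± 0.10; adjusted p for both = 0.00721, up to 0.0522). In these 3 genes day 1 was separated from both ends on every array. Rapgef5, an exchange factor for Rap and Ras GTPases, returned almost to its start: 505 and 498 in EpiSC, 1718 and 1783 on day 1 and 580.5 and 570.3 in NPC2 (adjusted p for both = 0.00148). Madcam1, an adhesion molecule of mucosal vessels, reached 1229 and 1083 on day 1 against 326 and 331 and 211 and 192 at the ends. Padi4, an enzyme that converts arginine to citrulline in proteins, reached 309 and 276 against 91.9 and 79.7 and 50.7 and 42.0. Without 1 array the adjusted p for both ends rose to as much as 0.0504 for Madcam1 and 0.0688 for Padi4. Filip1, an interactor of filamin A, and Aipl1, a chaperone known from photoreceptors, were dim at 1 or both ends, and day 1 was at least 2.58-fold and 2.30-fold higher. Filip1 passed the filter through day 1 alone, so its height there is no finding; the call of Aipl1 (adjusted p = 0.0386) reached 0.197 without 1 array.

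Immediate early genes, which respond to growth factors and stress within minutes, mostly fell late. Of 17 tested 12 lay above the midpoint and 1 below (median departure 0.52), 10 of them as late falls and 2, Ier3 and Btg2, higher than both ends. The call of Btg2 was weak (adjusted p = 0.0438, up to 0.216 without 1 array) and was not made with the spike-in scaling. Ier3 stood at 294 and 317 in EpiSC, 498 and 567 on day 1 and 34.0 and 34.8 in NPC2, a departure of 2.37 ± 0.071 (adjusted p = 0.000262; 0.0204 for both ends, up to 0.126 without 1 array). Atf3, a stress-induced factor of the ATF family, stood at 1354 and 1429.6 in EpiSC and 1669.6 and 1560.2 on day 1 and fell to 481 and 490.5 (departure 0.97 ± 0.05). Egr1 fell on both days, from 2054 and 2147 over 1114 and 1169 to 346 and 327, with the larger log2 step on the second day (departure 0.44 ± 0.049). Ier2 was the member below the midpoint, at −0.17 ± 0.043.

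Genes of the amino acid and unfolded protein stress responses, many of them targets of the factor ATF4, were also above the midpoint: 11 of 16, with 0 below at adjusted and unadjusted p alike, and a median departure of 0.35. The count fell to 4 with the spike-in scaling. Ddit4, an inhibitor of the growth kinase mTORC1, stood at 33314 and 32596 in EpiSC, 78950.3 and 83882 on day 1 and 56702 and 54455 in NPC2 (departure 0.93 ± 0.047; adjusted p for both ends = 0.0182, up to 0.101 without 1 array). Ddit3, the stress factor CHOP, stood at 349 and 366 in EpiSC, 479 and 513 on day 1 and 248 and 249 in NPC2 (departure 0.73 ± 0.049; adjusted p for both ends = 0.0308, up to 0.184). Trib3, a pseudokinase induced with CHOP, kept its level on day 1 and then fell, at 11823 and 12802 in EpiSC, 13666 and 12046 on day 1 and 4078 and 4414 in NPC2 (departure 0.83 ± 0.076). The unfolded protein markers Hspa5 and Xbp1 were not called, at 0.082 ± 0.042 and 0.039 ± 0.05. The ATF4 motif TGATGNAAN, read on both strands, was present in 6 of the 16 genes' promoters and in 2.90% of all, but in none of the windows of Atf5, Ddit3 and Ddit4, the 3 genes called higher than both ends. The call of Atf5 (adjusted p = 0.0168, up to 0.103 without 1 array) was not made with the spike-in scaling.

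Of the p53 targets 8 of 16 lay above the midpoint and 1 below, led by Gdf15 (0.89), a stress cytokine, and Bbc3 (0.69), a promoter of apoptosis. The count above was 4 to 5 with 1 array left out, whichever it was, 4 with each array's median as the scaling and 2 with the spike-in controls. Cdkn1a, the p53-driven cell cycle inhibitor p21, was not called (−0.038 ± 0.037). Of the cholesterol synthesis genes 12 of 19 lay above and 0 below, adjusted or not (median 0.20), 9 of them as late falls. Hmgcs1, the synthase before the rate-limiting step, stood at 53126 and 54626 in EpiSC, 74928 and 71828 on day 1 and 50197 and 48424 in NPC2 (departure 0.51 ± 0.043; adjusted p for both ends = 0.0251, up to 0.174 without 1 array). The count above was 5 to 7 with 1 array left out, whichever it was, 7 with each array's median as the scaling and 0 with the spike-in controls. Of the hypoxia and glycolysis genes Egln3, an oxygen-sensing prolyl hydroxylase, peaked at 236 and 228 in EpiSC, 558 and 665 on day 1 and 343 and 271 in NPC2 (departure 1.20 ± 0.12; adjusted p for both ends = 0.0473, up to 0.189 without 1 array). In that list 6 of 16 genes lay above the midpoint and 3 below, all 3 as early falls, and 7 were not called (median 0.051). With the spike-in scaling 3 lay above and 2 below. Slc2a1, the glucose transporter GLUT1, rose early and stayed: 25284 and 25419.8 in EpiSC, 82840.0 and 83862 on day 1 and 82487 and 77498 in NPC2 (departure 0.89 ± 0.044).

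Neuronal genes divided. Of 15 tested 6 lay above the midpoint and 1 below, and the median departure was −0.046. The sign of that median was not stable, as it was 0.32 without NPC1 B and 0.26 among the 12 members above background on all arrays. Tubb3, neuronal beta-tubulin, stood at 792 and 826 in EpiSC, 3761 and 3300.5 on day 1 and 2205 and 2359 in NPC2 (departure 1.37 ± 0.071; adjusted p for both ends = 0.0377, up to 0.178 without 1 array). Elavl3, a neuronal RNA-binding protein, stood at 228 and 244 in EpiSC, 490.2 and 470.3 on day 1 and 215 and 221 in NPC2 (departure 1.08 ± 0.049; adjusted p for both = 0.00721, up to 0.0527), and Gap43, a growth cone protein, at 1178 and 1173 in EpiSC, 2695 and 2910.4 on day 1 and 1855 and 1782 in NPC2 (departure 0.94 ± 0.05; up to 0.0951). These 3, with Stmn2 (up to 0.174 without 1 array), were called higher than both ends. Spike-in scaling did not make the calls of Tubb3, Gap43 and Stmn2. Dcx, a microtubule protein of young neurons, was not called (−0.52 ± 0.19). Summed over the 15 genes, the scaled intensity was 8930 to 9003 in EpiSC, 15248 to 15593 on day 1 and 11055 to 11229 in NPC2. The part of neuronal cells in these peaks was not tested.

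Targets of Wnt signalling included the largest departure below the midpoint. Wnt signals stabilise beta-catenin, which with TCF factors switches on genes that include feedback inhibitors of the pathway (Axin2, Dkk1, Apcdd1) and Sp5, a transcription factor of the primitive streak and the neural plate. Of 15 tested targets 8 lay below the midpoint and 1 above, with a median departure of −1.32, and 5 were called lower than both ends: Apcdd1, Axin2, Dkk1, Fzd10 and Sp5. Nkd1, Sp8 and Wif1 rose late. Lef1, a TCF family member, was the gene above, at 0.27 ± 0.065. The count of members below lay between 8 and 10 under the other scalings, but the median moved to −0.69 with the mean of probes, −0.84 among members above background on all arrays and −0.35 with normexp.

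Sp5 had the largest departure below the midpoint among all genes, at −3.87 ± 0.24 (adjusted p = 0.000921). Its scaled intensity was 870.1 and 853 in EpiSC, 140.0 and 241 on day 1 and 7547 and 9274 in NPC2. Day 1 was lowest on both arrays, though its duplicates differed more than those of the ends, and NPC2 was highest. It lay 4.69-fold below EpiSC and 45.5-fold below NPC2 (adjusted p for both = 0.0321, up to 0.174 without 1 array). Fzd10, a Wnt receptor, returned to its first level: 2332 and 2276 in EpiSC, 410.2 and 520.0 on day 1 and 2643 and 2919 in NPC2, a departure of −2.45 ± 0.11 (adjusted p for both = 0.00719, up to 0.0533). Dkk1, a secreted Wnt inhibitor, stood at 133 and 132 in EpiSC, 50.8 and 66.1 on day 1 and 609 and 586 in NPC2 (departure −2.28 ± 0.11; adjusted p for both = 0.0236, up to 0.136). Axin2, the negative regulator most often used as a readout of the pathway, stood at 22.3 and 20.4 in EpiSC, 13.3 and 13.8 on day 1 and 136 and 152 in NPC2 (departure −2.03 ± 0.068; adjusted p for both = 0.0313, up to 0.167), and Apcdd1, a membrane inhibitor of Wnt, at 58.2 and 62.6 in EpiSC, 35.2 and 39.3 on day 1 and 692 and 736 in NPC2 (departure −2.48 ± 0.068; adjusted p for both = 0.0256, up to 0.145). For Axin2, Dkk1, Apcdd1 and Sp5 the rise on the second day exceeded the fall on the first. Wnt5b, a Wnt ligand outside the list, fell from 1288 and 1334 to 317 and 337 and returned to 1536 and 1528, a departure of −2.12 ± 0.046 (adjusted p for both = 0.00148, up to 0.0299).

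Culture A fell deeper than culture B on day 1 in 7 of the 8 Wnt targets called below, by a median of 0.25 on the log2 scale. Over all tested genes NPC1 A lay under NPC1 B in 54.3%, with a median log2 difference of −0.014. The part of that difference between duplicates in the dips was not tested, and both cultures lay below both ends in each of the 5 dips.

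Promoters of 2 of these dips held the TCF motif, searched as CTTTGAT or CTTTGTT on both strands, with the match in capitals on the gene's strand.
Sp5, farther match: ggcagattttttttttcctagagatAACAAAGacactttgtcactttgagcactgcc
Sp5, nearer match: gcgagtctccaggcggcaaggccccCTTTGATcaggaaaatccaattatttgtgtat
Dkk1: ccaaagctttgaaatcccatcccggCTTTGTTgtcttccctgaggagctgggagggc
The Sp5 stretches are chr2:70474676-70474732 and chr2:70474794-70474850 (plus strand, 222 and 104 bases before the gene's start) and that of Dkk1 is chr19:30549563-30549619 (minus strand, 98 bases before). The motif occurred in 11 of the 29 genes with a window that were at least 2-fold lower than both ends (37.9%), among them Foxa1, Foxa2, Nrp2, Pcdh8 and Wnt5b. It occurred in 3 of the 38 at least 2-fold higher (7.89%) and in 7.88% of all tested genes with a window. Bpifb5 among the 11, and Filip1 and Dnah5 among the 3, passed the filter only where they are high. These shares are therefore a description and no support. Without the 2-fold limit the motif occurred in 14 of 96 genes lower than both ends (14.6%) and in 19 of 172 genes higher (11.05%). Without that limit both shares lay above that of all tested genes, and the motif was not particular to the lower genes. Within the Wnt list it was found in 2 of 10. The windows of Axin2 and Fzd10 held no match, and Apcdd1 had no entry. A position could count for more than 1 of the motifs searched.

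BMP and Id genes lay below the midpoint in 11 of 16 tested members and above it in 0, also at an unadjusted p under 0.05, with a median of −0.44. BMPs are signals of the epidermal and dorsal fates, and Id proteins, their common targets, block the factors that drive differentiation. Id2 stood at 1602 and 1653 in EpiSC, 494 and 477 on day 1 and 1784 and 1709 in NPC2, so that day 1 was lowest on both arrays and the ends lay close together; it departed by −1.80 ± 0.044 (adjusted p for both ends = 0.00148, up to 0.0299 without 1 array). Id1 and Id3 did not dip and rose late: Id3 stood at 489 and 504 in EpiSC, 1404 and 1689 on day 1 and 8921 and 9178 in NPC2 (departure −0.46 ± 0.084; lost without EpiSC B or NPC2 B, adjusted p up to 0.0538). Bmp4, a BMP ligand, and Msx2, a homeobox gene of the dorsal midline, also rose late, with departures of −1.11 and −1.26. Msx1 stood at 43.7 and 47.5 in EpiSC, 28.6 and 26.7 on day 1 and 507 and 562 in NPC2 (departure −2.50 ± 0.069; adjusted p for both ends = 0.0244, up to 0.136). Fst, the Activin and BMP antagonist follistatin, fell early from 7574 and 7442 to 1057 and 1496 and stood at 2558 and 2501 in NPC2 (departure −1.79 ± 0.14).

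Many genes of the primitive streak, of endoderm and of Nodal signalling lay below the midpoint on day 1. Nodal, a TGF-beta family ligand, maintains the epiblast and induces the streak. Of the Nodal pathway genes 10 of 16 lay below and 1, Foxh1, above (median −0.86); of the streak and mesoderm genes 9 of 17 lay below and 0 above, adjusted or not (median −0.51; 5 of the 10 above background on all arrays); of the endoderm genes 7 of 9 lay below and 0 above (1 at an unadjusted p under 0.05; median −0.74; 5 of 6 above background on all arrays). Late rises, with NPC2 above EpiSC, made up 3 of the 9 streak calls and 3 of the 7 endoderm calls below. Not above background in at least 1 group were 4 streak members and 1 endoderm member, so the full counts of both lists are no support. Endoderm markers summed to 3144 to 3241 in EpiSC, 885 to 903 on day 1 and 2018 to 2055 in NPC2.

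Nodal itself stood at 6442 and 6386 in EpiSC, 577 and 706 on day 1 and 364 and 385 in NPC2, a departure of −1.28 ± 0.091 (adjusted p = 0.00136), with 81.2% of its 2-day log2 change present on day 1. T (Brachyury), the defining factor of the streak, stood at 1509 and 1410.2 in EpiSC, 83.2 and 85.0 on day 1 and 60.5 and 64.7 in NPC2, a departure of −1.84 ± 0.053 (adjusted p = 0.00026), with 90.6% of the change present. The Nodal antagonist Lefty1 stood at 5753 and 5935 in EpiSC, 246 and 245 on day 1 and 338 and 312 in NPC2 and was called slightly lower on day 1 than in NPC2 (adjusted p for both ends = 0.0465, up to 0.197 without 1 array). Smad7, the inhibitory Smad, was down in full after a day, at 723 and 675 in EpiSC, 54.5 and 57.5 on day 1 and 55.9 and 46.4 in NPC2 (departure −1.75 ± 0.09). The co-receptor gene Tdgf1 fell on both days, 5842 and 5649 in EpiSC, 196 and 241 on day 1 and 43.1 and 42.3 in NPC2, with a departure of −1.19 ± 0.092. Another of its probes changed by −1.41 on the first day and was level on the second (0.047), with a departure of −0.73 ± 0.16.

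Foxa2, a pioneer factor of endoderm and floor plate, stood at 2091 and 1989 in EpiSC, 106 and 135 on day 1 and 522 and 590.2 in NPC2 (departure −3.15 ± 0.12; 17.1-fold below EpiSC and 4.64-fold below NPC2; adjusted p for both = 0.00825, up to 0.0552 without 1 array). Fgf8, a ligand of the streak and later of the midbrain-hindbrain border, stood at 2439.7 and 2423 in EpiSC, 129 and 192 on day 1 and 559 and 644 in NPC2 (departure −2.94 ± 0.17; adjusted p for both = 0.0209, up to 0.111; with the mean of its probes, or with dim probes kept in, it was not called beyond both ends). In both genes NPC2 stayed under EpiSC by several fold. Foxa1 followed at 176 and 170.2 in EpiSC, 47.8 and 47.8 on day 1 and 99.6 and 109 in NPC2 (departure −1.49 ± 0.053; adjusted p for both up to 0.0522).

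Further dips came from signalling and guidance genes. Nrp2, a receptor for semaphorins and VEGF, stood at 1965 and 1855 in EpiSC, 569 and 585 on day 1 and 6437 and 6972 in NPC2 (departure −2.63 ± 0.054; adjusted p for both = 0.00316, up to 0.0402). Pcdh8, a protocadherin of paraxial mesoderm and neural tissue, stood at 145 and 144 in EpiSC, 25.3 and 35.5 on day 1 and 321 and 308 in NPC2 (departure −2.83 ± 0.14; up to 0.0695). Fgf15, a ligand of the embryonic brain, stood at 342 and 346 in EpiSC, 70.4 and 93.7 on day 1 and 741 and 832 in NPC2 (departure −2.68 ± 0.13; up to 0.0695). In all 3, NPC2 exceeded EpiSC and day 1 was lowest. Samd5 (71.2 and 66.6 in EpiSC, 21.0 and 23.4 on day 1 and 367 and 381 in NPC2) had the same order and kept the call without each array. Maf and Nedd9 were not well above background on either day 1 array. Maf was at least 2.11-fold lower there than at both ends, and Nedd9, taken at its own signal, at least 3.23-fold. Both passed the filter through the ends alone, so their order is no finding.

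Dips were also called among feedback genes. Myc, a target of both Wnt and FGF signals, stood at 1404 and 1432 in EpiSC, 261 and 259 on day 1 and 373 and 372 in NPC2 (departure −1.49 ± 0.037; adjusted p for both ends = 0.0132, up to 0.0813 without 1 array). Spry1, an inhibitor of FGF signalling, stood at 1480.2 and 1406 in EpiSC, 614 and 621 on day 1 and 912 and 937 in NPC2 (departure −0.90 ± 0.043; up to 0.0847). The FGF targets differed in sign, with 7 of 15 below and 4 above. With 1 array left out, whichever it was, 1 to 3 lay above and 3 to 6 below, with 3 below without NPC1 A. The ETS factor genes Etv1, Etv4 and Etv5 fell late, Etv5 at 26709.5 and 27589 in EpiSC, 13748 and 13559 on day 1 and 2371 and 2552 in NPC2 (departure 0.74 ± 0.048). Aldh1a2, which makes retinoic acid, stood at 65.0 and 60.2 in EpiSC, 33.9 and 31.3 on day 1 and 89.1 and 85.1 in NPC2 (departure −1.18 ± 0.059; adjusted p for both = 0.00999, up to 0.0662), and Crabp1, which binds it in the cell, rose late to 1467 and 1591 from 282 and 282 and 379.6 and 367. Of the retinoid genes 6 of 13 lay below and 2 above (5 below and 2 above of the 11 above background on all arrays). Of the Notch pathway genes 8 of 14 lay below and 2 above. Among the 12 above background on all arrays 6 lay below and 2 above, with a median of −0.27. In the retinoid and the Notch list 2 members each were not above background in at least 1 group, so the full counts are no support. The ligand gene Jag1 dipped to 238 and 251 from 361 and 361 and reached 686 and 649.8 in NPC2 (adjusted p for both = 0.0177, up to 0.125).

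Among genes with ends at least 2-fold apart, the median share of the change present on day 1 was under 50% on the log2 scale. Of the 1431 genes that rose at least 2-fold over both days, the median share of the log2 change present on day 1 was 48.1% (quartiles 27.7% to 66.2%), and of the 1511 that fell it was 41.2% (21.6% to 63.5%). The scale matters here. On linear intensities the medians were 31.4% and 58.3%. Of the 305 early rises with ends at least 2-fold apart 244 also lay above the midpoint of the linear intensities, and of 540 such late falls 458 did.

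**Figure D3:**
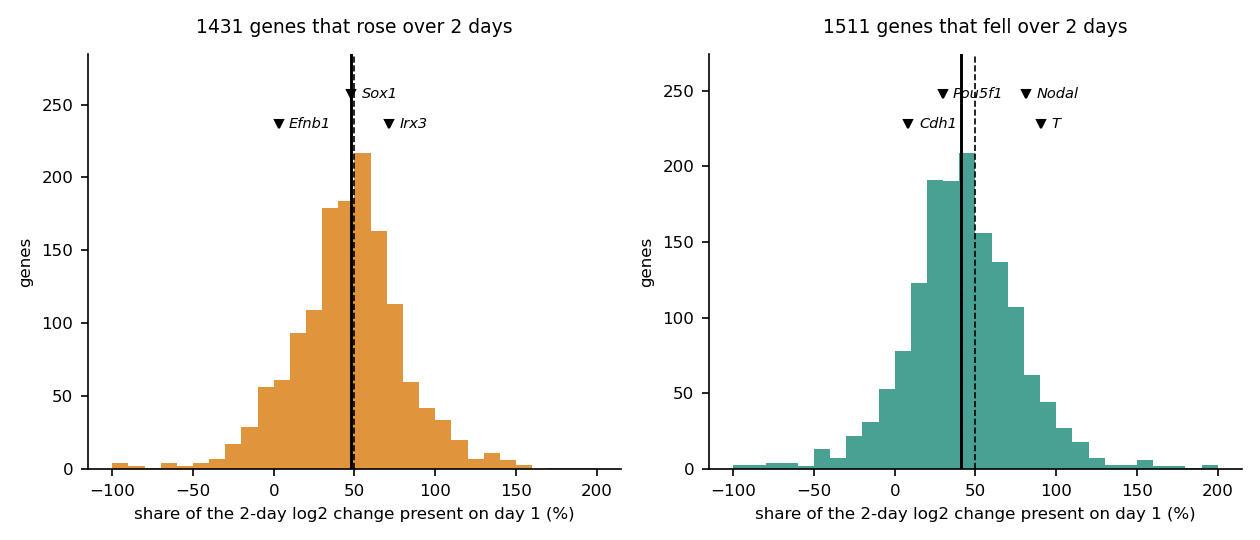
Number of genes (y axis) by the share of the 2-day log2 change that was present on day 1 (x axis, percent), for genes that rose (left) or fell (right) at least 2-fold between EpiSC and NPC2. Solid lines mark the medians, 48.1% and 41.2%, dashed lines mark 50%, and triangles mark named genes; 4 and 3 genes beyond the axis are counted in its end bars.

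Among genes above background on all arrays, the largest early rises included Kcnj12, Igsf21, Btbd17, Pla2r1 and Irx3. Kcnj12, an inward rectifier potassium channel, stood at 63.9 and 60.6 in EpiSC, 584 and 651 on day 1 and 714 and 799.8 in NPC2 (departure 1.51 ± 0.075; adjusted p = 0.000624). Irx3, an Iroquois homeobox gene of the neural plate, stood at 128 and 114 in EpiSC, 2052 and 2316 on day 1 and 6573 and 7400.1 in NPC2 (departure 1.25 ± 0.09; adjusted p = 0.00141), with 71.3% of its log2 change but 30.0% of its linear change present on day 1. In both the day 1 arrays lay far above both EpiSC arrays. Zic2, a zinc finger gene of the neural plate, rose from 2159.5 and 1985 to 3884 and 3672 and then stood at 3023 and 2908 (departure 0.61 ± 0.056). Sfrp1, a secreted Wnt antagonist of the anterior neural plate, rose from 149 and 140.1 to 494 and 516 and 577 and 669 (departure 0.75 ± 0.076).

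Late rises were called among the regional factors of the neural plate. Of 18 tested midbrain, hindbrain and posterior neural genes 10 lay below the midpoint, 9 of them as late rises, and 2, Irx3 and Irx5, above; the median departure was −1.20. Here too several members, such as En1 and Pax7, entered only through NPC2, where they are high, so the counts are no support; of the 9 above background on all arrays, 5 lay below and 2 above, with a median of −1.15. En2, a homeobox gene of the midbrain-hindbrain region, stood at 46.6 and 44.1 in EpiSC, 32.3 and 39.5 on day 1 and 807 and 1021 in NPC2 (departure −2.51 ± 0.13; adjusted p = 0.000648). Wnt1, the signal of that border, stood at 369.9 and 361 in EpiSC, 334 and 335 on day 1 and 2838 and 2999 in NPC2 (departure −1.63 ± 0.043), and Irx2 at 22.6 and 22.8 in EpiSC, 47.0 and 44.8 on day 1 and 898 and 953 in NPC2 (departure −1.66 ± 0.047). On day 1 En2 and Wnt1 lay at the EpiSC level or under it, and all of their rise came with the second day. En1, Pax3 and Pax7 were not well above background on the day 1 arrays, so that no size is given for their departures. Gbx2 and Tal2 were not called, at 0.16 ± 0.12 and 0.29 ± 0.20, and had gained 53.6% and 53.6% of their log2 change.

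The anterior neural plate and forebrain genes held 8 of 13 below the midpoint, all 8 as late rises, and 2 above (median −0.64). Several members, such as Otx1 and Fezf2, entered only through NPC2, where they are high, so these counts are no support: of the 6 members above background on all arrays, 3 lay below and 2 above, with a median of −0.012. With 1 array left out, 5 to 7 of the 13 lay below. Shisa2, an inhibitor of Wnt and FGF receptors, stood at 88.1 and 88.8 in EpiSC, 264 and 299.5 on day 1 and 1821 and 1533 in NPC2 (departure −0.45 ± 0.092). Hesx1, an early factor of the anterior plate, was not called, at 39.9 and 45.6 in EpiSC, 206 and 216 on day 1 and 901 and 726 in NPC2 (departure 0.18 ± 0.11; adjusted p = 0.268). Six3, a forebrain factor, was well above background in NPC2 alone and not called (adjusted p = 0.119), and Otx2, a factor of epiblast and forebrain present throughout at 12361 and 12451 in EpiSC, 14306 and 13818 on day 1 and 22109 and 20327 in NPC2, had a small departure of −0.21 ± 0.051 that was lost with 5 of the 6 arrays left out in turn (adjusted p up to 0.142).

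The largest late rises outside the lists were Scube2, Nr2f1, Slc32a1, Efnb1 and Flrt3. The probes of Slc32a1 differed: 1 departed by −2.34 ± 0.17, and another was level on both days and not called (0.0093 ± 0.16). Scube2, a secreted protein that helps release Hedgehog, stood at 96.1 and 99.0 in EpiSC, 49.0 and 65.1 on day 1 and 3267 and 3649.9 in NPC2 (departure −3.36 ± 0.13; adjusted p = 0.000366). Its other probe departed less, by −1.49 ± 0.23, and was nearly level on the first day (0.087). Nr2f1, the nuclear receptor COUP-TFI, stood at 34.7 and 26.7 in EpiSC, 40.5 and 46.7 on day 1 and 2447 and 2653 in NPC2 (departure −2.68 ± 0.13). Efnb1, an ephrin that shapes borders between cell groups, was level for a day and then rose 27.2-fold: 303 and 311 in EpiSC, 333 and 347 on day 1 and 8932 and 9523 in NPC2 (departure −2.31 ± 0.048). For these 3 genes NPC2 was apart from all other arrays by more than an order.

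**Figure D4:**
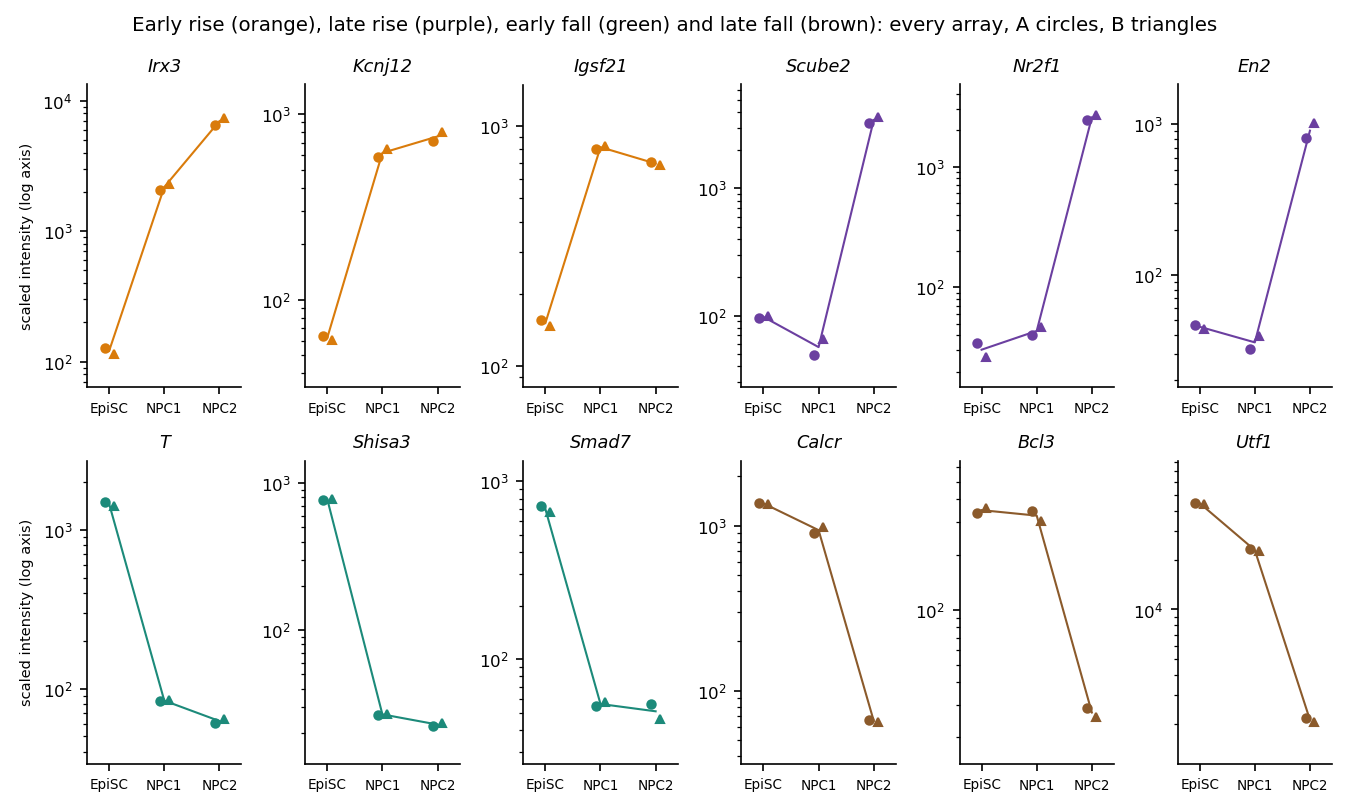
Scaled intensity (log axes, 1 panel per gene) on every array for genes that rose early (orange), rose late (purple), fell early (green) or fell late (brown); circles are culture A, triangles culture B, lines join geometric means. Irx3, Kcnj12 and Igsf21 and the falls of T, Shisa3 and Smad7 were mostly present on day 1, while Scube2, Nr2f1 and En2, Calcr, Bcl3 and Utf1 changed mostly on the second day.

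General neural plate genes had no common side, with 7 of 19 above and 7 below, and a median that changed sign with the scaling. Sox1, the earliest specific marker of the neural plate, moved in nearly equal log2 steps and was not called (departure −0.11 ± 0.051; adjusted p = 0.178). Its other probe, also not called, rose by 0.25 on the first and 1.57 on the second day (departure −0.66 ± 0.17). Sox2 was not called either (0.14 ± 0.056), while Sox3 rose late (−0.49 ± 0.062). Nes, the intermediate filament nestin, kept its level for a day and then fell, 11081 and 11392 in EpiSC, 11657 and 10524 on day 1 and 2774 and 2717 in NPC2 (departure 1.00 ± 0.056). Cdh2, N-cadherin of the neural tube, was nearly level on day 1 and rose afterwards, 2242 and 2216 in EpiSC, 2384 and 2448 on day 1 and 8889.9 and 8419 in NPC2 (departure −0.86 ± 0.043; adjusted p = 0.000624).

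Late falls were called in part of the epithelial and pluripotency genes. Of 20 cadherin and epithelial to mesenchymal genes 8 lay above, all as late falls, and 5 below (2 to 5 with 1 array left out). Cdh1, the E-cadherin of the epiblast, stood at 7202 and 7438 in EpiSC, 6399 and 6286 on day 1 and 1417 and 1307 in NPC2 (departure 1.01 ± 0.05; adjusted p = 0.000624), with 8.51% of its log2 fall present on day 1. Cldn7, a tight junction claudin, stood at 17363 and 17966 in EpiSC, 14569 and 13521 on day 1 and 2650.3 and 2286 in NPC2 (departure 1.09 ± 0.076), and Krt8, a simple epithelial keratin, at 9621 and 9721 in EpiSC, 8608 and 8567 on day 1 and 2594 and 2493 in NPC2 (departure 0.79 ± 0.039). Most of the fall of Cdh1, Cldn7 and Krt8 and of the rise of Cdh2 came with the second day.

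Of 18 epiblast pluripotency genes 7 lay above the midpoint, all as late falls, and 5 below (3 to 4 with 1 array left out). Utf1, a chromatin factor of pluripotent cells, stood at 44995 and 44389.7 in EpiSC, 23343 and 22794 on day 1 and 2182 and 2044 in NPC2 (departure 1.25 ± 0.046; adjusted p = 0.000346), and L1td1, an RNA-binding protein gene, at 85104 and 82070.3 in EpiSC, 36938 and 35299 on day 1 and 4087 and 3854 in NPC2 (departure 0.99 ± 0.049). Pou5f1 departed by 0.54 ± 0.064, a call that the spike-in scaling did not make, and had completed 29.7% of its log2 fall. Fgf5 fell in nearly equal log2 steps and was not called, at 8316 and 8294 in EpiSC, 2159 and 2165 on day 1 and 474 and 398 in NPC2 (departure 0.19 ± 0.078; adjusted p = 0.143). Nanog rose slightly on both days, 127 and 136 in EpiSC, 171 and 172 on day 1 and 229 and 233 in NPC2, with a departure of −0.023 ± 0.046 (adjusted p = 0.745). Dnmt3b, the de novo DNA methyltransferase of the epiblast, fell late (0.38 ± 0.043; not called with the spike-in scaling), and Dnmt3l, its catalytically inactive partner, fell early (−0.70 ± 0.057). Of 13 naive pluripotency genes 4 lay above and 1 below. Fbxo15, a target of Oct4 and Sox2, peaked at 422 and 489.9 in EpiSC, 816 and 752 on day 1 and 284 and 284 in NPC2 (departure 1.13 ± 0.077; adjusted p for both ends = 0.0257, up to 0.138 without 1 array).

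The largest late falls among genes above background on all arrays were Krt17, Pdgfb, Ttn, Bcl3, Plet1 and Calcr. Calcr, the calcitonin receptor, stood at 1373 and 1361 in EpiSC, 904 and 979 on day 1 and 66.5 and 64.8 in NPC2 (departure 1.65 ± 0.049; adjusted p = 0.000262). Pdgfb, a growth factor of the PDGF family, stood at 1009 and 1136 in EpiSC, 1394 and 1254 on day 1 and 152 and 135 in NPC2 (departure 1.76 ± 0.087). The largest early falls were Shisa3, T, Fst, Smad7, Tmem63a and Zfpm2. Shisa3, a membrane inhibitor of Wnt and FGF receptors, stood at 770.3 and 785 in EpiSC, 26.4 and 27.0 on day 1 and 22.1 and 23.4 in NPC2 (departure −2.32 ± 0.044; adjusted p = 0.000221). Tmem63a, a membrane channel gene, stood at 3221 and 3501 in EpiSC, 427 and 388 on day 1 and 458 and 460.0 in NPC2 (departure −1.61 ± 0.062). Shisa3 and Tmem63a had thus reached their NPC2 level by day 1, while 12.3% of the log2 fall of Calcr was present and Pdgfb had not fallen.

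**Figure D5:**
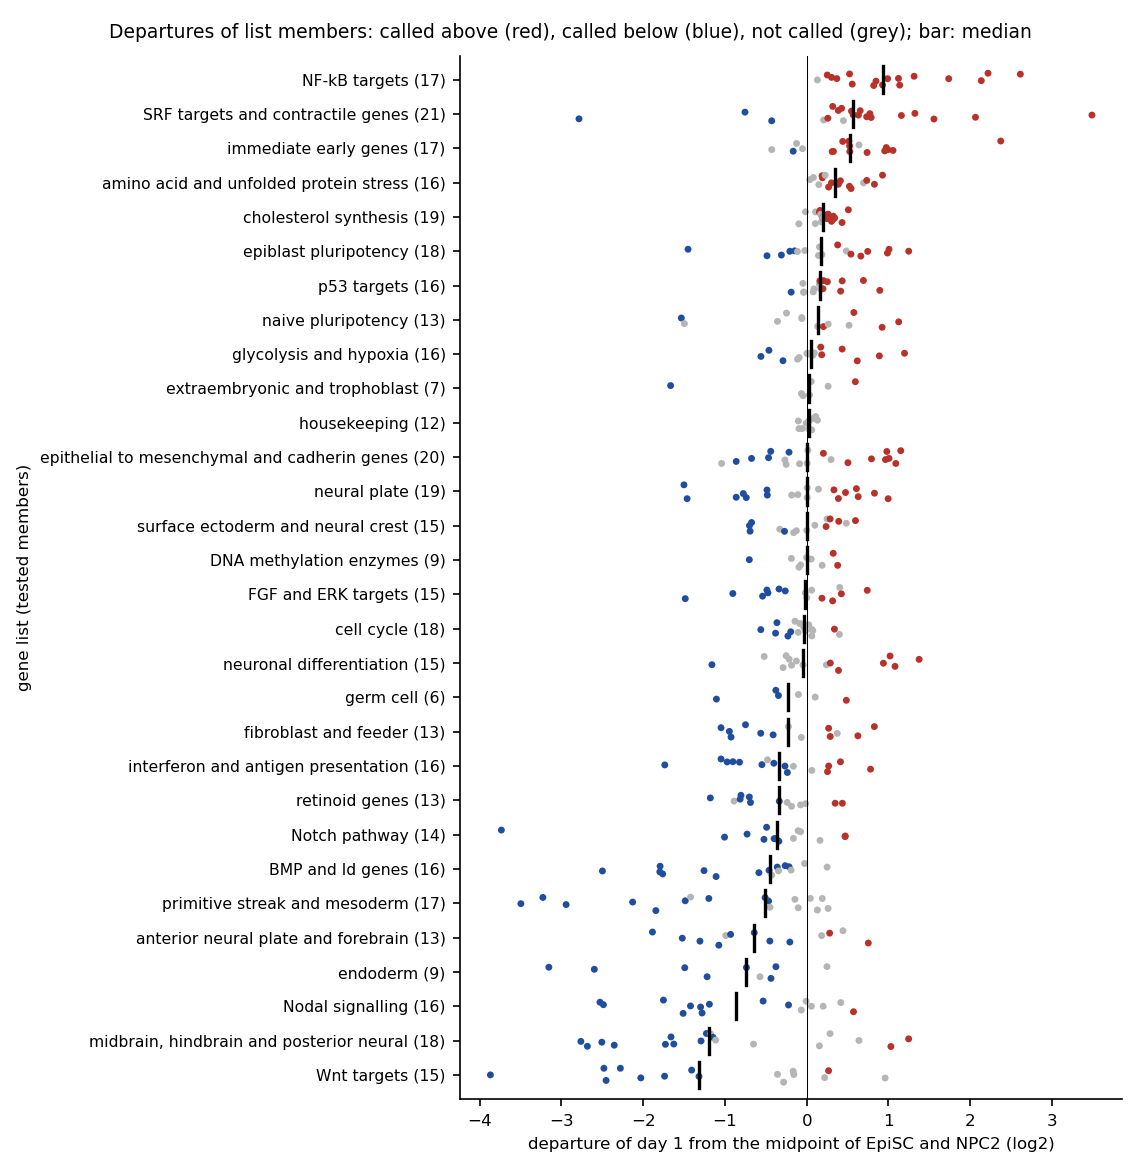
Log2 departure of day 1 from the midpoint (x axis) for every tested member of 30 gene lists (y axis, tested members in brackets); each point is 1 gene, red if called above, blue if called below, grey if not called, and black bars are medians. NF-kB targets have a median of 0.93 and Wnt targets one of −1.32; with the mean of probes, normexp or only genes above background on all arrays, other lists have lower medians than the Wnt targets.

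The housekeeping genes gave the level of the scaling: 0 of 12 were called by limma (1 at an unadjusted p under 0.05, 0 under every other scaling), with a median departure of 0.028, Actb at 0.11 ± 0.045 and Gapdh at −0.0052 ± 0.049. The sign of such small values changed with the scaling, and their median was −0.030 with each array's median and −0.058 with the spike-in controls. Cell cycle genes departed little, with 1 of 18 above and 5 below; Mki67, the proliferation antigen Ki-67, was not called (0.025 ± 0.039), nor was the mitotic kinase gene Cdk1 (−0.035 ± 0.042). Of the markers of other cell types, surface ectoderm and neural crest genes had 4 of 15 above and 4 below, extraembryonic and trophoblast genes 1 of 7 on each side, and germ cell genes 1 of 6 above and 3 below. With 1 array left out these counts fell, to 0 to 3 above and 2 to 3 below for surface ectoderm, 1 below for germ cells and 2 to 3 below for the cell cycle. The summed intensity of the surface ectoderm and neural crest markers was 6765 to 7036 in EpiSC, 5194 to 5669 on day 1 and 5948 to 5952 in NPC2.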

How the data were processed

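Per the labels' protocols, 100 ng of total RNA per culture was labelled with Cy3 and fragmented for 30 minutes. Per the file headers, Agilent Feature Extraction 10.10.1.1 (protocol GE1_1010_Sep10, array design 028005) gave each spot a processed intensity, background-subtracted and linear, and flags for background, saturation and outliers. The value table deposited by the authors equals that intensity times a constant for each array (2.10 to 2.41), whose origin the labels do not give.

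Control and outlier spots were left out and the spots of a probe averaged. Probes were named by RefSeq accession through a table of assembly GRCm38.p6 (26744 of the 28372 probes with such an accession matched 1 gene). The log2 of the processed intensity, less each array's 75th percentile of it, was fitted with limma 3.58.1 in R 4.3.3, in 1 fit of all 6 arrays on 3 groups (3 residual and 1.88 prior degrees of freedom), with two-sided p-values adjusted by Benjamini-Hochberg at 0.05. A gene is its brightest probe that was well above background on both arrays of a group; 3 of 3902 genes with several such probes had probes called in opposite directions. The scripts were tested on simulated data.

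Members, lists (437 of 488 genes tested) and rules were chosen with earlier results of these data known. The naming rule took the 8 largest departures to each side, the 10 largest differences beyond both ends and the 4 largest bounds to each side, the 6 largest of each course between the ends, the 4 largest called members of each list, and a fixed set, 172 genes in all. Some genes that the rule took are not reported here. Other genes named, such as Relb, Axin2 or Cdk1, were chosen after their values were seen. Alternatives were other scalings, the value table, normexp background correction, other probe filters, the mean of probes, a block for the culture letter, a threshold of 0.01 and each array left out.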

Additional observations from a re-analysis of the deposited data

How the results depend on the processing

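The 2 arrays per group and the common seed culture limit these results, since neither shows how far separate conversions differ. Counts beyond both ends rest on the larger of 2 p-values and are the least stable. Counts with each array left out ranged, for genes higher than both ends, from 11 to 34 (main 218; at least 2-fold 11 to 25 against 49) and, for genes lower, from 12 to 33 (main 127; at least 2-fold 11 to 30 against 39). They ranged from 1378 to 1818 above the midpoint and from 1100 to 1361 below it, from 447 to 529 for early rises, 503 to 552 for late rises and 425 to 590 for early falls. Early rises and late falls of at least 2-fold numbered 58 to 82 and 125 to 158, above the main 50 and 101, as fewer genes were called beyond both ends. At an adjusted p of 0.01 there were 1083 genes above, 810 below, 37 higher and 28 lower than both ends (25 and 24 at least 2-fold), 287 early rises, 343 late rises, 294 early falls and 564 late falls.

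Spike-in scaling gave 957 above, 1082 below, 132 higher than both ends, 77 at least 2-fold lower, 223 early rises, 418 late rises, 352 early falls and 457 late falls; median scaling gave 1355 early falls. Normexp with quantile normalization, which compresses low signals, gave 74 and 108 departures of at least 2-fold above and below, 413 and 238 genes beyond both ends (16 and 14 at least 2-fold), and 4 early rises, 44 late rises, 24 early falls and 15 late falls of at least 2-fold. Without a filter on dim probes 1304 lay below, 47 and 33 beyond both ends (30 and 25 at least 2-fold), with 475 early rises and 508 early falls. With genes above background on all 6 arrays alone, 158 lay at least 2-fold below, with 21 early rises, 49 late rises, 42 early falls and 60 late falls of at least 2-fold. The cause of these shifts was not tested.

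The culture letters did not pair the samples: the correlations of the A minus B deviations between groups were 0.0082, 0.0059 and −0.045. The replicate block gave 53 genes higher and 42 lower than both ends (32 at least 2-fold higher), and 52 and 41 of these were among the main calls; it did not make 23 of the 58 calls beyond both ends among the named genes; other counts stayed within 1.5 times.

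Signs turned only near 0. The departure of Gapdh was 0.0068 in the value table, 0.053 with the mean of probes, and −0.062 to 0.052 with 1 array left out. That of Nanog was −0.048 to 0.0021 with 1 array left out, and that of Hesx1 was −0.14 with normexp.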

Other observations

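Outside the lists, some further genes called higher than both ends are given here, chosen after their values were seen. Tnf, the inflammatory cytokine that activates NF-kB, was above background on the day 1 arrays alone, at 19.0 and 15.2, at least 1.81-fold higher than both ends. Cxcl5, a neutrophil chemokine, had the same pattern at 15.6 and 16.6, at least 1.72-fold higher. Both passed the filter through day 1 alone, so their height there is a description, with no test. There were 7 genes called higher than both ends that were above background on day 1 alone, and 3 called lower that were above it at both ends alone. Tnnc2, the calcium-binding troponin C of fast muscle, stood at 1125 and 1252 in EpiSC, 3521 and 3402 on day 1 and 569.8 and 498 in NPC2, and Rrad, a small GTPase that limits calcium channels, at 49.3 and 48.4 in EpiSC, 107 and 113 on day 1 and 40.2 and 38.1 in NPC2. Calca, the gene of calcitonin and the peptide CGRP, stood at 2039 and 2167 in EpiSC, 4389.7 and 4784 on day 1 and 2268 and 2136 in NPC2. In these 3 genes both day 1 arrays were the highest, and without 1 array the adjusted p rose to 0.0566, 0.0504 and 0.0599.

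Among the genes lower than both ends, 3 more signalling genes were found after their values were seen. Wnt7b, a Wnt ligand, stood at 89.5 and 108 in EpiSC, 28.5 and 24.6 on day 1 and 65.4 and 69.7 in NPC2 (adjusted p for both ends = 0.0157, up to 0.0925 without 1 array). Dact1, a modulator of Wnt signalling, stood at 425 and 392 in EpiSC, 123 and 176 on day 1 and 335 and 359.9 in NPC2 (adjusted p = 0.047, up to 0.222), and Slit1, a repulsive axon guidance ligand, at 435 and 474 in EpiSC, 221 and 195 on day 1 and 965 and 974 in NPC2 (adjusted p = 0.00999, up to 0.0662). In each, both day 1 arrays were the lowest.

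Of 14072 tested probes without a gene name, 999 lay above the midpoint (7.10%) and 469 below (3.33%), and 16 and 8 lay beyond both ends. Of these, 7495 stood for intergenic lincRNA intervals, with 530 above and 252 below.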
